A study of Mus musculus with 4 samples.

Results

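The epidermal growth factor (EGF) family described here comprises 10 genes, taken by name: the ligand genes Egf, Hbegf, Areg, Tgfa, Ereg and Btc and the receptor genes Egfr, Erbb2, Erbb3 and Erbb4. All probe sets that the array annotation lists for these genes under a single symbol were read. They numbered 20 of the 45037 on the array and covered 9 of the 10 genes, out of 18193 genes read in all. Areg had no probe set listed and was not analysed here. Of the 9 genes, 7 reached the detection floor, a log2 signal of 5.72, in 1 or more arrays, and 2 (Ereg and Erbb4) lay below it in all 4.

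Kidney tissue of male C57Bl/6 mice, either wild type or labelled Tet2KO, was collected after a sham operation or after ischemia-reperfusion, which was 60 min of ischemia and 24 h of reperfusion. The Tet2 protein is an oxidase that acts on methylated cytosine in DNA. Each of the 4 groups was 1 array hybridised with RNA pooled from 3 mice, so there is no spread between mice, no test was possible, and precision is limited by there being 4 arrays in all. Below, an injured array means the ischemia-reperfusion one, and where 4 values follow each other the order is wild-type sham, wild-type injured, Tet2KO-labelled sham, Tet2KO-labelled injured. The age of the mice, the type of Tet2 allele and the cells it affects were not given in the sources used here.

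Ligands of this family are made as proteins anchored in the cell membrane and are set free by metalloproteinases. They bind receptor tyrosine kinases that work in pairs: EGFR binds EGF, TGF-alpha and amphiregulin, and EGFR and ERBB4 both bind HB-EGF, betacellulin and epiregulin. ERBB2 has no known ligand of its own and serves as a partner, and ERBB3 has a weak kinase and signals through its partner. In the kidney, EGF is made in the thick ascending limb and the distal convoluted tubule, is shed into the urine and promotes magnesium uptake, while HB-EGF is known as a ligand that injured tubules make.

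Egf and Btc were the ligands with the lowest signals in the Tet2KO-labelled kidneys after ischemia-reperfusion, relative to their own levels elsewhere, and the 250 bases before their annotated starts are shown for this reason. Both were taken from RefSeq (GRCm38.p6), in which 7 of the 10 genes had an entry. The Egf stretch is chr3:129755323-129755572 and the Btc stretch chr5:91402995-91403244, both on the minus strand and both upstream of the first exon. Capitals mark a CACCC box (CACCC, or GGGTG where it lies on the opposite strand) and the word TTTAAA.
Egf: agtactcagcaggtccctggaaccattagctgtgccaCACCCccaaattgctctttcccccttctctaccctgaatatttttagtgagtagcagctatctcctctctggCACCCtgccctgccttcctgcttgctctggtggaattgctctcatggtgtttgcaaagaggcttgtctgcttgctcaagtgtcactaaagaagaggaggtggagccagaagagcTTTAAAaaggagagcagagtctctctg
Btc: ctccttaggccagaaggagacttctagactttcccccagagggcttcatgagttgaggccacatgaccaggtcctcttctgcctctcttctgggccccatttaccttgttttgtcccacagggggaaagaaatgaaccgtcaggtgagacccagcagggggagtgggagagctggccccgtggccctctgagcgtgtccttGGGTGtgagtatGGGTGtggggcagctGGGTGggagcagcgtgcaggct
The Egf stretch held the CACCC box 213 and 141 bases before the start and TTTAAA 27 bases before it. The Btc stretch held 3 CACCC boxes on the opposite strand, 49, 37 and 22 bases before the start. These words are common: of 32851 stretches of this length in RefSeq, 52% held a CACCC box and 12.1% held TTTAAA on either strand. Neither stretch held the AP-1 word TGANTCA (in 6.75% of all stretches), the CRE word TGACGTCA (1.55%), the ERR half-site AAGGTCA (4.08%), the HNF1 half-site GTTAAT (6.43%), the TATA box TATAAA (12.4%), the GC box GGGCGG (32.7%), the CCAAT box (33.8%), the TEAD word GGAATG (12.6%) or the serum response element core (0.0609%), searched on both strands. The G and C content was 50.4% for Egf and 59.6% for Btc, against a median of 52.4% over all stretches. In the RefSeq order of protein-coding genes on chromosome 5, Epgn, Ereg, Areg and Btc follow each other with no other protein-coding gene between them.

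The arrays as a whole set the scale for these values. Column medians lay between 6.28 and 6.33 on the log2 scale, and all pairs of arrays correlated over all probe sets at r = 0.963 to 0.993, the lowest between the Tet2KO-labelled arrays. Probe sets of one gene, both at or over the floor, differed in their log2 ratio with an SD of 0.24 for ischemia-reperfusion over sham in wild type, 0.39 for the same in the Tet2KO-labelled pair, 0.19 between the sham arrays and 0.32 between the ischemia-reperfusion arrays. That SD covers technical error only. The Tet2 signal was lower in the Tet2KO-labelled array, by more than the SD between probe sets, after injury but not after sham. Its probe sets read 9.96 and 9.84 in wild-type sham and 9.87 and 10.25 in Tet2KO-labelled sham, the second of them thus higher there, and 9.16 and 9.30 in the wild-type injured array and 8.74 and 8.60 in the Tet2KO-labelled one. Where they lie relative to the altered part of the gene is not known here, and the groups are therefore called by their label. Fat markers were high in wild-type sham and in Tet2KO-labelled ischemia-reperfusion, with summed linear signals over 7 genes of 7181 and 9774, and low in the other arrays, with 748 and 1573.

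Egf, the ligand that gave the family its name, had the largest differences of the family. Its only probe set, 1418093_a_at, read 13.82 in the wild-type sham array, 12.36 in the wild-type injured array, 13.78 in the Tet2KO-labelled sham array and 9.16 in the Tet2KO-labelled injured array on the log2 scale. The sham arrays were alike within the SD between probe sets, the wild-type injured array was below both, and the Tet2KO-labelled injured array was the lowest by far. Egf was 2.75-fold lower after ischemia-reperfusion in wild type and 24.6-fold lower in the Tet2KO-labelled pair. Its linear signal after injury was thus 36.3% of that in its own sham array in wild type and 4.07% in the Tet2KO-labelled pair. Between the injured arrays Egf was 9.22-fold lower in the Tet2KO-labelled one, and between the sham arrays it differed by 1.03-fold.

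**Figure D1:**
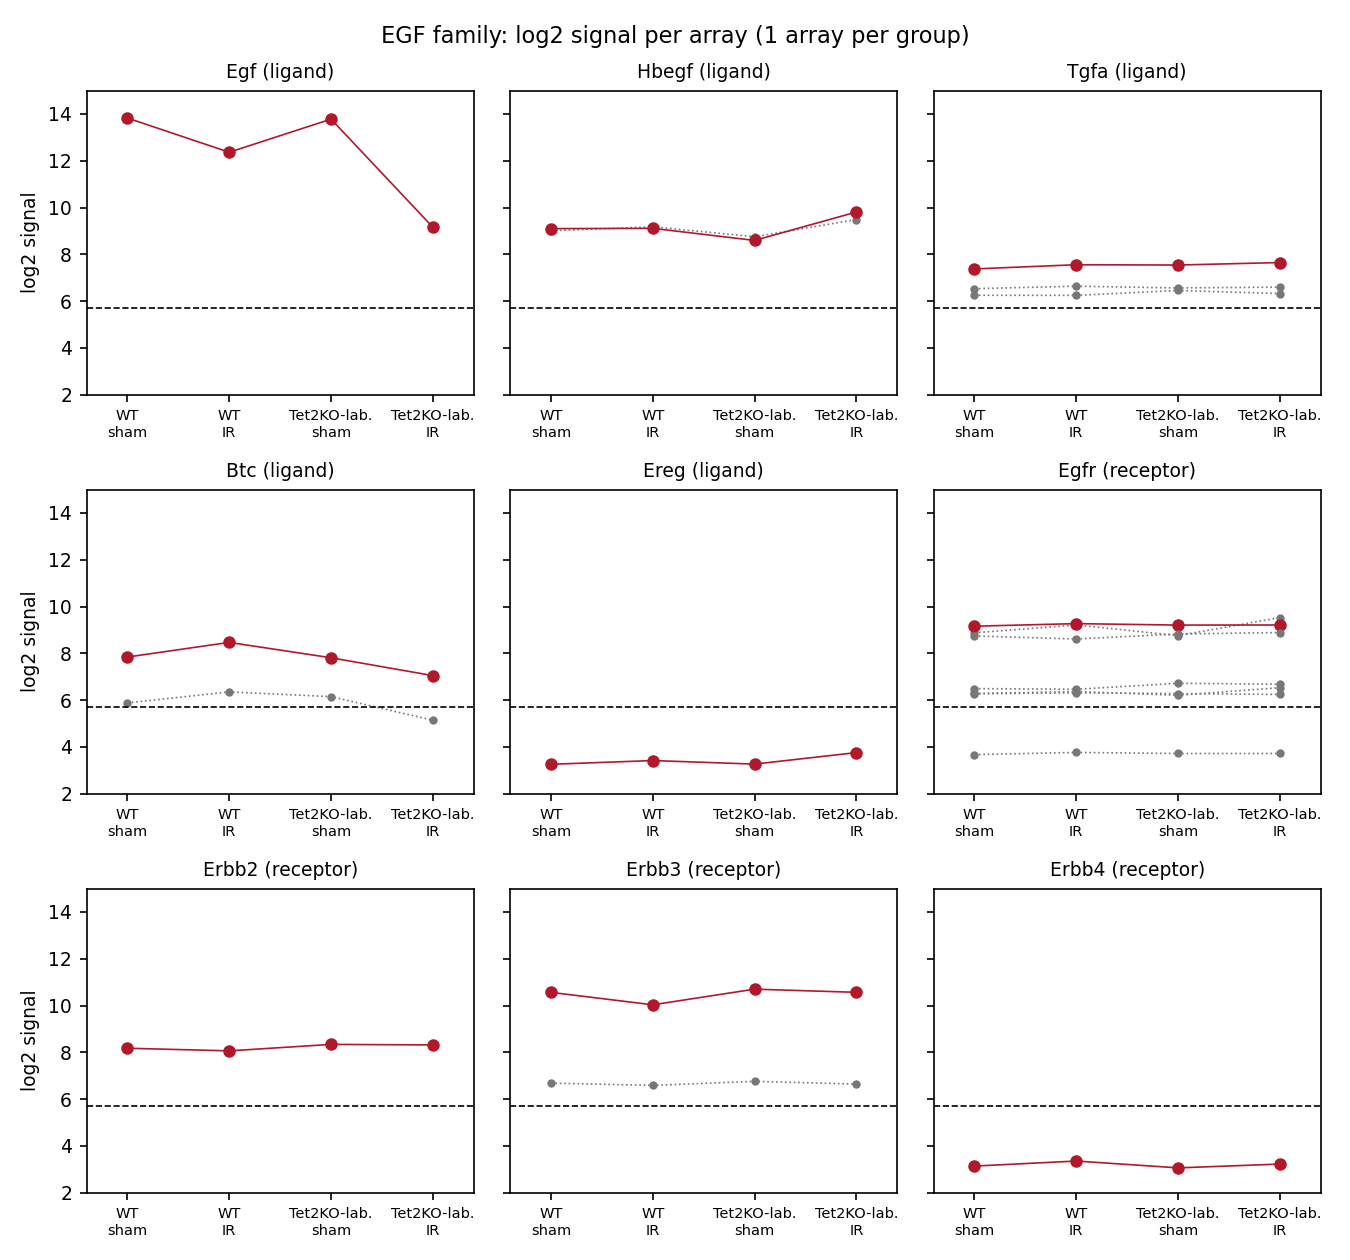
Log2 signal (y axis) of every probe set of 9 EGF family genes in the 4 arrays (x axis), 1 array per group; red points and solid lines show the probe set read for the gene, grey points and dotted lines its other probe sets, lines only join values of 1 probe set, and the dashed line is the floor of 5.72. Egf spans 13.82 to 9.16, Btc is lowest and Hbegf highest in the Tet2KO-labelled ischemia-reperfusion array, and Ereg and Erbb4 stay below the floor in all 4.

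Egf stood near the end of the distribution of all genes. In wild type 126 of 13531 measured genes had a lower log2 ratio than its -1.46, in the Tet2KO-labelled pair 6 of 13600 had one lower than its -4.62, and between the injured arrays 10 of 13492 had one lower than its -3.20. In RNA of kidney tissue, fewer Egf-making cells and less Egf RNA per cell cannot be told apart. The value also rests on 1 probe set, whose suffix _a_at marks probes shared by transcripts of 1 gene, so no other probe set could be set beside it.

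Markers of the segments that make EGF were lower too, most of them in the Tet2KO-labelled injured array. Of 13 listed markers of the thick ascending limb and distal convoluted tubule, 11 were read, all 11 at or over the floor in every array. Their summed linear signal was 64518 in the wild-type sham array, 48497 in the wild-type injured array, 58993 in the Tet2KO-labelled sham array and 24973 in the Tet2KO-labelled injured array. Umod, the brightest marker, weighs most in that sum, with log2 ratios after injury of 0.006 in wild type and -0.40 in the Tet2KO-labelled pair. After ischemia-reperfusion 2 of 11 were lower at 2-fold in wild type, with a median log2 ratio of -0.71, and 9 of 11 in the Tet2KO-labelled pair, with a median of -1.99. Over all measured genes 2.18% and 6.89% were lower at 2-fold, and the medians were 0.02 and -0.02. Other segments were lower as well. Of the 12 proximal tubule markers 3 were lower in wild type and 8 in the Tet2KO-labelled pair, with medians of -0.53 and -1.62, and of 8 collecting duct markers 0 and 3 were, with medians of -0.19 and -0.84. The part of these markers in the Egf result was not tested.

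Egf was below all 11 of these markers in the Tet2KO-labelled pair and below 10 of them in wild type. Pvalb, a calcium-binding protein of the distal convoluted tubule, came closest. It was 2.91-fold lower in wild type and 11.1-fold lower in the Tet2KO-labelled pair. The loop salt transporter Slc12a1 was 1.73-fold and 5.52-fold lower in the same comparisons. Its second probe set was below the floor in both injured arrays, so its log2 ratios of -0.38 and -0.41 are bounds. Umod, the uromodulin gene of the thick ascending limb, had log2 signals of 14.52, 14.52, 14.43 and 14.02 in the usual order. It differed least among the markers in the Tet2KO-labelled pair, with a log2 ratio of -0.40, and its signals lie close to the highest on any array, 14.97.

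Genes of magnesium handling were read because EGF promotes magnesium uptake in the distal tubule. All 11 were measured. None passed 2-fold after ischemia-reperfusion in wild type, where the median log2 ratio was -0.18, and 2 were lower in the Tet2KO-labelled pair, where the median was -0.69. Over all genes 2.18% and 6.89% were lower in these comparisons. The 2 genes were Cldn16, a tight-junction protein of the thick ascending limb that passes magnesium, 2.57-fold lower, and Pcbd1, a cofactor-recycling enzyme that also partners a kidney transcription factor, 2.39-fold lower. Fxyd2 had a log2 ratio of -0.16 in that pair on the probe set read. Its other probe sets disagreed, with log2 ratios from -3.08 to -0.15 with the floor in place. Trpm6, the magnesium channel that EGF acts on, read 9.23 in the wild-type sham array, 8.73 in the wild-type injured array, 8.84 in the Tet2KO-labelled sham array and 8.11 in the Tet2KO-labelled injured array on the log2 scale. It was 1.42-fold lower after injury in wild type and 1.65-fold lower in the Tet2KO-labelled pair. On its second probe set, with the floor in place, the log2 ratios were -0.51 and -0.41, the larger of them in wild type.

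**Figure D2:**
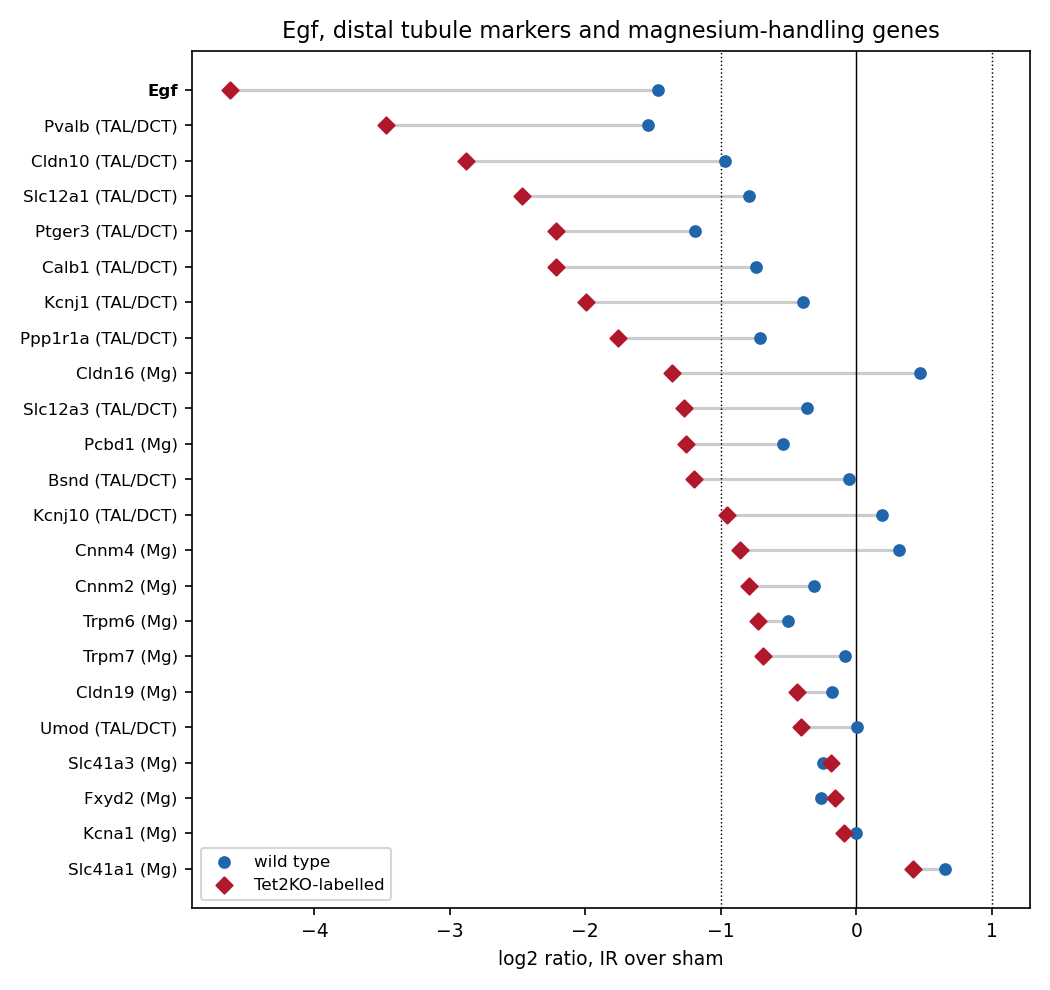
Log2 ratio of ischemia-reperfusion over sham (x axis) for Egf, 11 markers of the thick ascending limb and distal convoluted tubule (TAL/DCT) and 11 magnesium-handling genes (Mg), ordered by the Tet2KO-labelled ratio; blue circles are wild type, red diamonds Tet2KO-labelled, 1 ratio of 2 arrays each, and dotted lines mark 2-fold. Egf lies at -1.46 and -4.62, left of every other gene in the Tet2KO-labelled pair.

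The genes whose profile over the 4 arrays was closest to that of Egf were ranked by distance. By the Euclidean distance between centred log2 signals, the nearest were the organic anion transporter Slc22a7 at 0.18, the complement component C8a at 0.35, the amino acid transporter Slc7a13 at 0.46, Wfdc15b at 0.51 and Serpina1f at 0.53. Slc22a7 and Slc7a13 are genes of the proximal tubule. Slc22a7 had log2 signals of 12.56, 11.15, 12.38 and 7.74 in the usual order. The distance rests on 4 arrays. All 5 genes were lower in both injured arrays than in their sham arrays, as Egf was, which that choice makes likely.

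Btc encodes betacellulin, a ligand of EGFR and ERBB4. Its brighter probe set, 1435541_at, read 7.84 in the wild-type sham array, 8.47 in the wild-type injured array, 7.81 in the Tet2KO-labelled sham array and 7.05 in the Tet2KO-labelled injured array on the log2 scale. The sham arrays were alike, and the injured arrays lay on opposite sides of them. Btc was 1.54-fold higher after ischemia-reperfusion in wild type and 1.70-fold lower in the Tet2KO-labelled pair, and each of these log2 ratios, 0.63 and -0.76, exceeded the SD between probe sets. Between the injured arrays it was 2.68-fold lower in the Tet2KO-labelled one.

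The dimmer Btc probe set, 1421161_at, differed in the same directions near the floor. It read 5.88 in the wild-type sham array, 6.35 in the wild-type injured array, 6.15 in the Tet2KO-labelled sham array and 5.14 in the Tet2KO-labelled injured array on the log2 scale, the last below the floor. With the floor in place it was 1.38-fold higher after injury in wild type, at least 1.35-fold lower in the Tet2KO-labelled pair and at least 1.55-fold lower between the injured arrays. The profiles nearest to that of Btc were Nampt, an enzyme of NAD synthesis, at a distance of 0.13, Kng1, the kininogen gene, at 0.19, the organic anion transporter Slc22a6 at 0.20, Tmie at 0.20 and Wnt5b at 0.23. Slc22a6 is a gene of the proximal tubule. The 12 proximal tubule markers, all over the floor in every array, had a summed linear signal of 126878 in the wild-type sham array, 91695 in the wild-type injured array, 127298 in the Tet2KO-labelled sham array and 60724 in the Tet2KO-labelled injured array. Kap, the brightest of them, weighs most in that sum, with log2 ratios after injury of -0.04 in wild type and -0.11 in the Tet2KO-labelled pair. The part of these markers in the Btc values was not tested.

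Hbegf encodes heparin-binding EGF-like growth factor. The probe set read for it, 1418350_at, read 9.10 in the wild-type sham array, 9.11 in the wild-type injured array, 8.59 in the Tet2KO-labelled sham array and 9.81 in the Tet2KO-labelled injured array on the log2 scale. The wild-type arrays were alike, the Tet2KO-labelled sham array was the lowest and the Tet2KO-labelled injured array the highest. Hbegf was thus 2.32-fold higher after injury in the Tet2KO-labelled pair and 1.01-fold higher in wild type. The other probe set, 1418349_at, with 9.01, 9.18, 8.75 and 9.49 in the same order, gave 1.66-fold and 1.12-fold. With the median of both probe sets the log2 ratio in the Tet2KO-labelled pair was 0.97, just within 2-fold.

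The Hbegf result depended on which sham array served as control. Against the sham array of the other genotype the log2 ratio after injury was 0.71 in place of 1.21 for the Tet2KO-labelled array and 0.52 in place of 0.01 for the wild-type array. Between the sham arrays Hbegf was 1.42-fold lower in the Tet2KO-labelled one, a log2 ratio of -0.50 that 2.99% of measured genes fell below. Between the injured arrays it was 1.62-fold higher in the Tet2KO-labelled one. The closest profiles were Lypd6b at a distance of 0.07, the cytoskeletal gene Map1b at 0.07, 4930523C07Rik at 0.11, Sntb2 at 0.11 and the kinase gene Camkk2 at 0.12.

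Markers of injured tubules and of other cell types differed between the same arrays. The injured-tubule markers, 6 of 7 read, had summed linear signals of 2876 in the wild-type sham array, 26393 in the wild-type injured array, 1931 in the Tet2KO-labelled sham array and 48329 in the Tet2KO-labelled injured array, and 4 of the 6 reached the floor in Tet2KO-labelled sham against all 6 in the other arrays. The 10 macrophage markers had 4081, 2301, 4056 and 3357 in that order, with Itgam below the floor in all 4 arrays. They differed in direction: after injury 2 of 9 measured (Cd68 and Cd14) were higher at 2-fold in both genotypes. In wild type 4 were lower, and in the Tet2KO-labelled pair 3. Over all genes 2.06% and 6.06% were higher, and 2.18% and 6.89% lower. The neutrophil markers, 6 of 8 read, had 309, 464, 290 and 2218, with Mpo and Cxcr2 below the floor in all 4. In the Tet2KO-labelled injured array S100a8 and S100a9 read 10.03 and 9.92 on the log2 scale. Csf3r and Elane read 6.24 and 5.86 there, near the floor. The 7 urothelium markers had 1565, 866, 672 and 1073, so that they, like the fat markers, were lower in Tet2KO-labelled sham than in wild-type sham. In the Tet2KO-labelled pair the fat markers, with 2 and 5 of 7 at or over the floor, were also higher after injury, as Hbegf was. In the wild-type pair the fat markers were lower after injury, with 7181 and 748, and so were the urothelium markers, while Hbegf was alike there. The podocyte markers, 4 of 5 read, had 1328, 392, 1362 and 2796. In the Tet2KO-labelled pair 3 of the 4 were higher after injury at 2-fold, where 6.06% of all genes were. Of these, Podxl and Synpo each had another probe set, with log2 ratios of -0.01 and -0.05 there, the latter a bound. The 6 endothelium markers had 2349, 661, 2138 and 1702. Their median log2 ratio after injury was -1.25 in wild type and -0.04 in the Tet2KO-labelled pair, where they differed in direction, from -1.37 (Plvap) to 0.40 (Cdh5). The part of these lists in the Hbegf values was not tested.

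Tgfa, which encodes TGF-alpha, a ligand of EGFR, differed little. Its probe set 1421943_at read 7.38 in the wild-type sham array, 7.56 in the wild-type injured array, 7.54 in the Tet2KO-labelled sham array and 7.65 in the Tet2KO-labelled injured array on the log2 scale. No step between neighbours in that order of levels exceeded the SD between probe sets. The gene was 1.13-fold higher after injury in wild type and 1.08-fold higher in the Tet2KO-labelled pair, and on its remaining probe sets the log2 ratio was 0.11 and -0.005 in wild type and 0.04 and -0.13 in the Tet2KO-labelled pair.

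Ereg, the epiregulin gene, was below the floor in all 4 arrays, with log2 signals of 3.26, 3.42, 3.27 and 3.76 in the usual order. No fold is given for it. Its neighbour Epgn, which encodes the EGFR ligand epigen and is outside the 10 genes, was below the floor too, with 5.23, 5.58, 5.66 and 5.30 in that order.

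The receptors differed far less than Egf. Over the 9 receptor probe sets at or over the floor and the 4 comparisons of 2 arrays, the log2 ratios lay between -0.53 and 0.77, and 0 of 36 passed 2-fold, where between 1.03% and 12.9% of all genes did, depending on the comparison. Of the 36, 5 exceeded the SD between probe sets of their comparison. The 7 probe sets of ligands other than Egf had ratios from -1.42 to 1.21 in 28 such values, of which 13 exceeded that SD and 2 passed 2-fold.

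Egfr, the receptor that binds most ligands of the family, was read by 7 probe sets. The one with the highest mean, 1435888_at, read 9.16 in the wild-type sham array, 9.27 in the wild-type injured array, 9.21 in the Tet2KO-labelled sham array and 9.21 in the Tet2KO-labelled injured array on the log2 scale, which are alike. Another bright one, 1424932_at, had 8.88, 9.21, 8.76 and 9.53 in the same order. It was 1.26-fold higher after injury in wild type and 1.71-fold higher in the Tet2KO-labelled pair, where both log2 ratios, 0.34 and 0.77, exceeded the SD between probe sets. The probe set 1460420_a_at, also bright, had log2 ratios of -0.13 and 0.06. The probe sets of Egfr thus disagreed on whether its signal was higher after injury, by 1.71-fold at most. The probe set 1457563_at was below the floor in all 4 arrays.

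Erbb2, the partner receptor, read 8.18 in the wild-type sham array, 8.06 in the wild-type injured array, 8.34 in the Tet2KO-labelled sham array and 8.32 in the Tet2KO-labelled injured array on the log2 scale. No step in the order of its levels exceeded the SD between probe sets, and the widest of the 4 comparisons was 1.19-fold between the injured arrays.

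Erbb3, a receptor for neuregulins, read 10.56 in the wild-type sham array, 10.03 in the wild-type injured array, 10.70 in the Tet2KO-labelled sham array and 10.56 in the Tet2KO-labelled injured array on the log2 scale, taken from its brighter probe set, 1434606_at. The wild-type injured array was the lowest and the other 3 were alike. Erbb3 was 1.44-fold lower after injury in wild type and 1.10-fold lower in the Tet2KO-labelled pair, and its dimmer probe set, 1452482_at, had log2 ratios of -0.10 and -0.12. Between the injured arrays Erbb3 was 1.45-fold higher in the Tet2KO-labelled one, where the dimmer probe set had a log2 ratio of 0.06. Erbb4, the other neuregulin receptor, was below the floor in all 4 arrays on its only probe set, with log2 signals of 3.14, 3.36, 3.06 and 3.23 in the usual order.

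**Figure D3:**
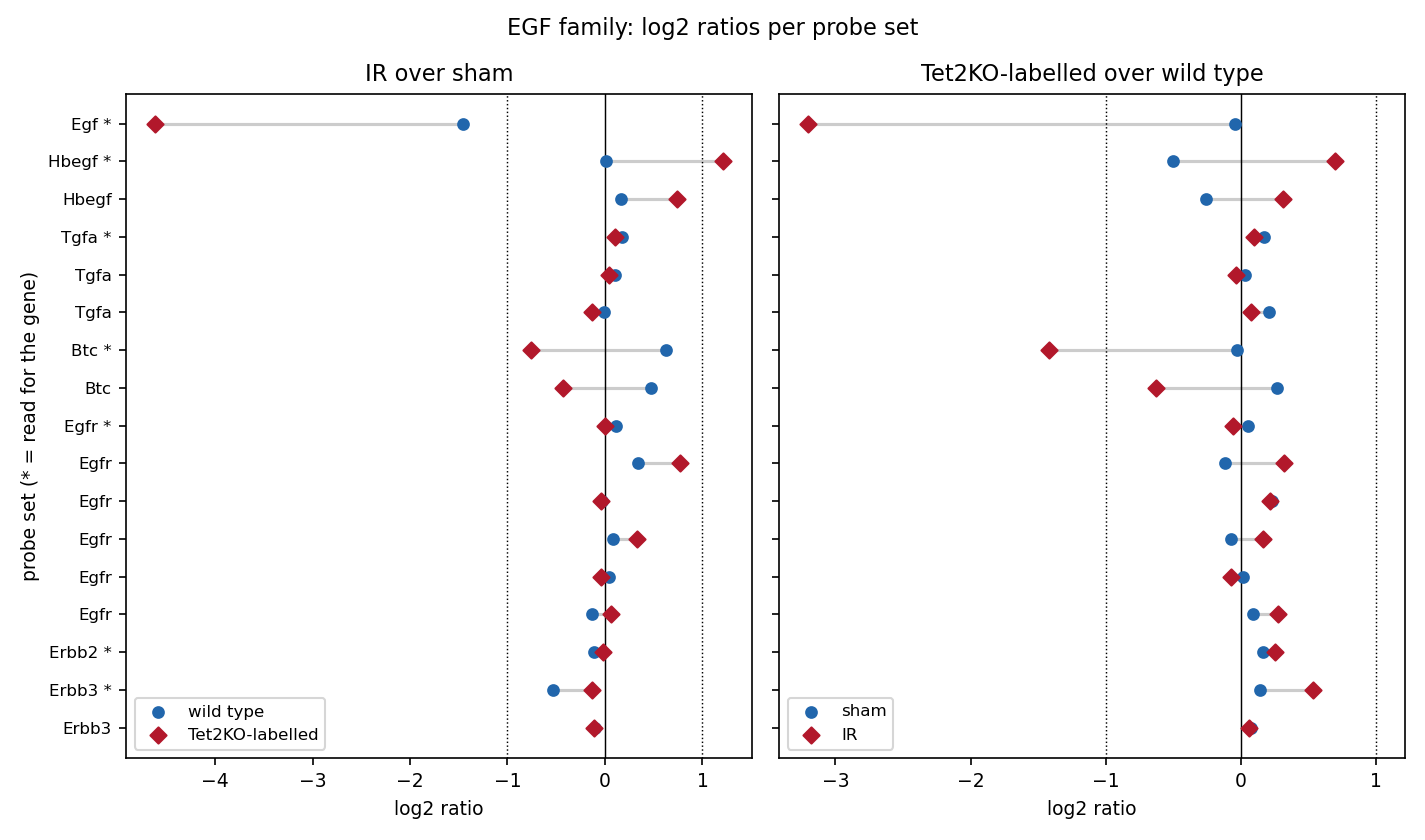
Log2 ratios (x axis) of each EGF family probe set that reached the floor (y axis, the one read for the gene starred), on the left ischemia-reperfusion over sham for wild type (blue circles) and Tet2KO-labelled (red diamonds), on the right Tet2KO-labelled over wild type for sham (blue circles) and ischemia-reperfusion (red diamonds); each is 1 ratio of 2 arrays, signals below the floor of 5.72 are set to it, dotted lines mark 2-fold, and the panels differ in x scale. The Egf ratios reach -4.62 and -3.20, both Btc probe sets lie on opposite sides of 0 for the genotypes on the left, and all receptor probe sets lie within 2-fold.

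With 7 genes measured, the counts past 2-fold are too small to rank against the shares of all genes given beside them. After ischemia-reperfusion in wild type 0 were higher and 1 (Egf) was lower, where 4.24% of all measured genes passed, 2.06% higher and 2.18% lower. In the Tet2KO-labelled pair Hbegf was higher and Egf lower, where 12.9% of all genes passed, 6.06% higher and 6.89% lower. Between the sham arrays 0 passed in either direction, against 1.03% of all genes, 0.186% higher and 0.846% lower. Between the injured arrays 0 were higher and Egf and Btc were lower, where 7.68% of all genes passed, 3.68% higher and 3.99% lower. The medians over the 7 genes were 0.01, -0.02, 0.05 and 0.09 in those comparisons, and those over all genes 0.02, -0.02, 0.04 and -0.009.

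The difference of the ischemia-reperfusion responses, Tet2KO-labelled minus wild type, compares the responses directly. It was -3.16 on the log2 scale for Egf, -1.39 for Btc and 1.20 for Hbegf, the 3 of 7 past 2-fold where 9.52% of all genes were, 4.75% higher and 4.77% lower. Of 13808 genes, 9 had a lower difference than Egf, 2.16% a lower one than Btc and 3.18% a higher one than Hbegf. The other 4 genes had differences between -0.11 (Egfr) and 0.40 (Erbb3). This comparison uses the same 4 arrays as those above and is not independent of them.

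The remaining ligands of the ErbB receptors are the neuregulins and epigen. Of these 5 genes, 3 were measured. Nrg1, which encodes neuregulin 1, a ligand of ERBB3 and ERBB4, read 6.43 in the wild-type sham array, 7.66 in the wild-type injured array, 6.38 in the Tet2KO-labelled sham array and 7.40 in the Tet2KO-labelled injured array on the log2 scale. Both injured arrays were above both sham arrays, by 2.34-fold in wild type and 2.02-fold in the Tet2KO-labelled pair. The latter was just past 2-fold, and its log2 ratio was 0.97 with quantile normalization, 0.96 against the other sham array and 0.80 once a pseudocount replaced the floor. Nrg2 and Nrg4 stayed within 2-fold in all 4 comparisons.

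Few genes that release the ligands or damp the receptors passed 2-fold, and few of all genes did, 4.24% in wild type and 12.9% in the Tet2KO-labelled pair. Of the 10 release genes, 0 of 9 measured passed 2-fold in wild type and 0 of 10 in the Tet2KO-labelled pair, with median log2 ratios of -0.06 and 0.32. Adam17, the main sheddase of several of these ligands, had log2 signals of 8.56, 8.60, 8.85 and 8.71 in the usual order. The highest ratios among the release genes were those of Rhbdf1, a rhomboid-like partner of that sheddase, 1.77-fold higher after injury in wild type and 1.98-fold higher in the Tet2KO-labelled pair. Of the 14 attenuation genes, 1 passed 2-fold: Usp8, a deubiquitinating enzyme of receptor sorting, was 2.14-fold lower in the Tet2KO-labelled pair, while the second Usp8 probe set gave a log2 ratio of 0.25. Errfi1, whose protein binds and inhibits the EGFR kinase, had 13.23, 12.79, 12.89 and 13.23 in the same order of arrays.

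Of the genes that relay the signal inside the cell, 24 of 29 were read. In wild type 0 passed 2-fold, and in the Tet2KO-labelled pair 4 were higher and 1 was lower, against 4.24% and 12.9% of all genes in either direction. The 5 fell to 3 with the median of probe sets, to 3 with quantile normalization and to 2 (Nras and Stat3) once a pseudocount replaced the floor. Stat3, a transcription factor that cytokine and growth factor receptors activate, was 3.21-fold higher in that pair, with other probe sets between 0.24 and 2.02 in log2 ratio, and Nras, a small GTPase of the pathway, was 2.64-fold higher, with others between 1.23 and 1.53. The kinase genes Akt1, at 2.05-fold, and Src, at 2.03-fold, were the other higher ones, and Akt1 was 2.36-fold higher between the injured arrays. For Akt1 other probe sets had log2 ratios between -0.20 and 1.04 in the Tet2KO-labelled pair and from -0.20 to 1.94 between the injured arrays. For Src the other one had 0.81 in the Tet2KO-labelled pair. Eps8, an EGFR substrate, was 2.02-fold lower, with -1.18 and -0.99 on its other probe sets. Grb2, the adaptor that links receptors to RAS, was 1.78-fold higher in that pair and 2.08-fold higher between the injured arrays. Its other probe set had log2 ratios of 1.05 and 0.69 in these comparisons, so which of them passed 2-fold depended on the probe set.

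Genes that the ERK kinases downstream of these receptors can induce were higher after injury in part, and many other signals induce them too. Of 19 measured, 3 were higher and 0 lower in wild type, with a median log2 ratio of 0.49, and 9 were higher and 0 lower in the Tet2KO-labelled pair, with a median of 0.93. Over all genes 2.06% and 6.06% were higher at 2-fold. Plaur, the urokinase receptor gene, read 7.36 in the wild-type sham array, 8.30 in the wild-type injured array, 6.95 in the Tet2KO-labelled sham array and 10.01 in the Tet2KO-labelled injured array on the log2 scale. It was thus 1.92-fold higher in wild type and 8.33-fold higher in the Tet2KO-labelled pair. Dusp5, an ERK phosphatase, was 1.62-fold and 4.05-fold higher in the same comparisons, Phlda1 1.41-fold and 3.02-fold, and Myc 4.50-fold and 5.92-fold. Maff was 3.10-fold and 7.88-fold higher. Fosl1 was at least 2.10-fold and at least 6.07-fold higher.

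Part of that list turned on the sham array. Egr1, an early growth response factor, read 11.45 and 8.51 on the log2 scale in the wild-type and Tet2KO-labelled sham arrays, and 10.85 and 10.60 in the corresponding injured arrays. Its log2 ratio after injury in the Tet2KO-labelled array was 2.10 against its own sham array and -0.85 against that of wild type. Junb went from 1.89 to 0.65 in the same way. With the sham arrays exchanged, 5 genes of the list were higher and 0 lower in wild type, with a median of 0.61, and 7 were higher and 1 lower in the Tet2KO-labelled pair, with a median of 0.67. Over all genes 4.35% and 13% passed 2-fold in either direction with that exchange. Between the sham arrays 3 of 18 measured genes of the list were lower and 0 higher in the Tet2KO-labelled one, where 0.846% and 0.186% of all genes were.

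**Figure D4:**
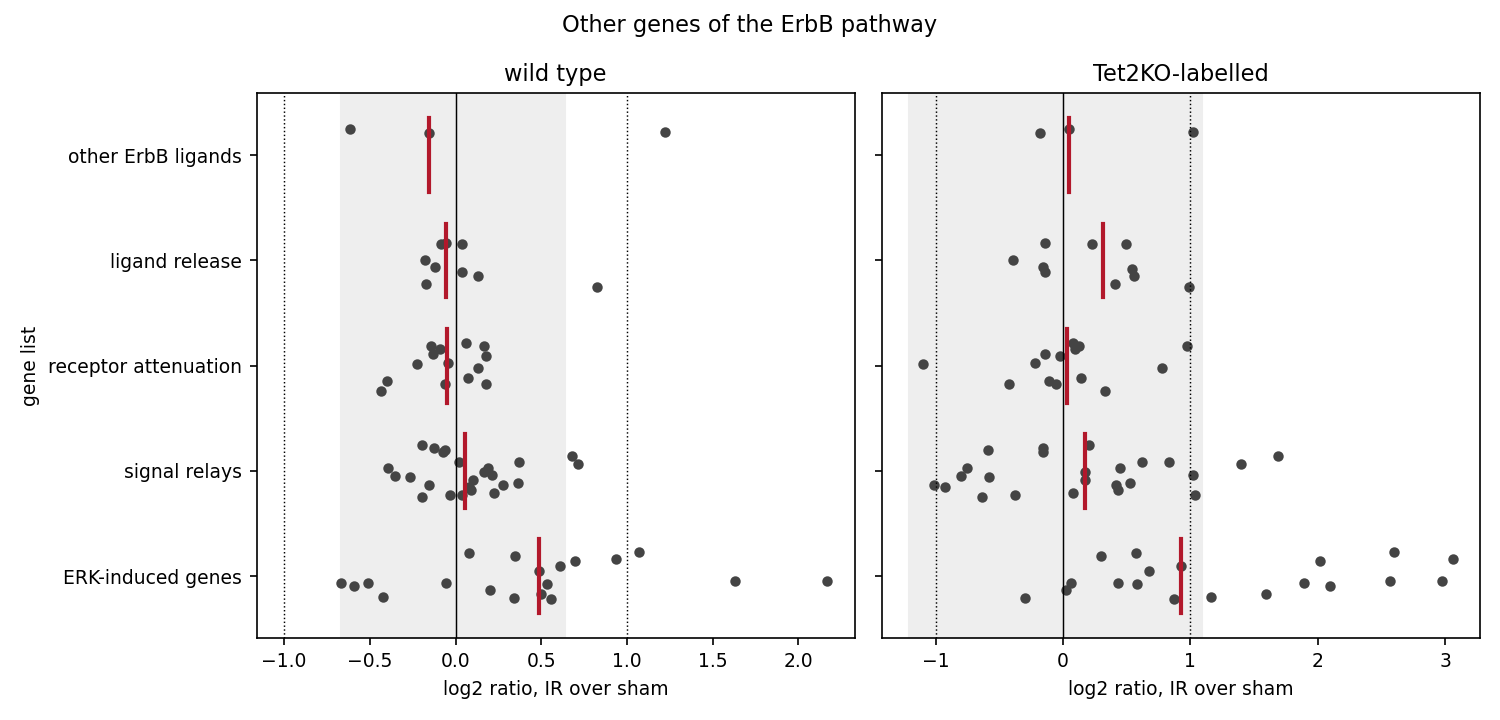
Log2 ratio of ischemia-reperfusion over sham (x axis) for genes of 5 lists of the ErbB pathway (y axis, 1 point per gene, spread vertically for legibility), in wild type (left) and Tet2KO-labelled (right); red bars are list medians, dotted lines mark 2-fold, the grey band runs from the 5th to the 95th percentile of all measured genes, and the panels differ in x scale. The ERK-induced genes have medians of 0.49 and 0.93, while the other lists have medians between -0.15 and 0.32.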

How the data were processed

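Kidney RNA from 4 groups was measured on 1 Affymetrix expression array each. The deposited values are log2 signals per probe set, a unit inferred from their range of 2.51 to 14.97. The submitters' processing notes name MAS5 without a version, and how the authors scaled the arrays is not given in the sources used here.

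Probe sets were named through the platform annotation: 34945 have 1 symbol, 932 several and 9160 none. The probe set with the highest mean signal was read for each gene, an _x_at one only where no other existed. Signals under the 40th percentile of all values were set to that floor. A gene counted as measured in a comparison if 1 or more of its arrays reached the floor, and a fold with one side at the floor is given as a lower bound. With 1 array per group, log2 ratios were computed without a test, and a gene counted as higher or lower at 2-fold. The calculation of ratios and calls was tried on simulated data, with changes well past 2-fold in genes well over the floor. That trial does not cover calls near 2-fold or signals near the floor.

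The family members and all gene lists were chosen with earlier results of these data known. Named genes were the 10 members, up to 8 genes per pathway list past 2-fold in any comparison of 2 arrays, and the 5 genes nearest in profile to each member that spans over 1 on the log2 scale. Adam17, Rhbdf1, Errfi1, Trpm6, Fxyd2, Nrg2, Nrg4, Epgn, and the markers were named after their values were seen. Alternatives changed the probe set rule, the floor, the scaling and the sham control. Work used Python 3.11.15, numpy 2.4.6 and pandas 2.3.3.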

Additional observations from a re-analysis of the deposited data

Results flagged for a closer look

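Btc had ratios after ischemia-reperfusion on opposite sides of 0 in the genotypes, each by more than the SD between probe sets. Its log2 ratios were 0.63 in wild type and -0.76 in the Tet2KO-labelled pair. The difference was not tested, because each ratio rests on 2 arrays. With the sham arrays exchanged the ratios were 0.66 and -0.79, so the sign of neither depended on the sham array used.

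Cldn16 had log2 ratios of 0.47 in wild type and -1.36 in the Tet2KO-labelled pair. Egr1 had -0.59 and 2.10, and Junb had -0.51 and 1.89. These differences were not tested either. For Egr1 and Junb the opposite signs depended on the sham arrays: with those exchanged Egr1 had 2.35 and -0.85, and Junb 0.73 and 0.65. Cldn16 then kept its signs, with 0.23 and -1.13, but the wild-type ratio no longer exceeded the SD between probe sets.

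The 5 genes named for the likeness of their profile to that of Btc had opposite signs too, which that choice makes likely, and their differences were not tested. The log2 ratios in wild type and in the Tet2KO-labelled pair were 0.68 and -0.67 for Nampt, 0.39 and -0.72 for Kng1, 0.43 and -0.63 for Slc22a6 and 0.67 and -0.81 for Tmie. Wnt5b had 0.64 and -0.67, the latter a bound because its signal in the Tet2KO-labelled injured array was below the floor.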

How the results depend on the processing

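Of 254 log2 ratios of family members recomputed with another probe set rule, floor, scaling or sham control, 252 moved by less than the SD between probe sets and 0 reversed a call. The other 2 were those of Hbegf with the sham arrays exchanged, given above. Many of the 254 could not move. The measured members lay above every floor tried, and the probe sets read for them, apart from that of Egf, are plain _at ones. Egf and Erbb2 have 1 probe set each, so a median could not change them. Only the scaling, the pseudocount, the sham control and, for the other genes, the median could move a ratio. Of 37 recomputed counts of members past 2-fold, 32 stayed within 1.5 times. With plain _at probe sets alone, Egf drops out because its only probe set is an _a_at one, and the counts were then 0 in wild type, 1 in the Tet2KO-labelled pair (Hbegf) and 1 between the injured arrays (Btc). In the Tet2KO-labelled pair the count was 1 (Egf) when the probe sets of a gene were summarised by their median, and also with the other sham array. That median also put the Hbegf difference of responses within 2-fold (0.88). Pathway lists and their genes were recomputed in the same ways, which was decided after seeing the data: 811 of 865 values stayed as they were by the same measure, 53 moved and 1 reversed, that of Egr1 at -0.85 with the other sham array. Nrg1 was within 2-fold in both genotypes with a pseudocount of 32 in place of the floor (0.98 in wild type, 0.80 in the Tet2KO-labelled pair), and in the Tet2KO-labelled pair also with quantile normalization and the other sham array. No paired analysis was possible because each group is 1 array. Centring and quantile normalization kept every count over the members. Pools of 3 mice on single arrays and signals near the floor limit what can be said of Ereg, Erbb4 and the dimmer Btc probe set.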
